A study of Mus musculus with 6 samples.

Results

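Gm4737, Eno1b, Gm14308 and Gm14434 are 4 of the 149 genes that the authors listed as different between 2 groups of mouse hearts, and were taken by symbol. They were selected on their deposited counts and FPKM values in this comparison: in Gm4737, Eno1b and Gm14308 the counts of 1 group were at or near 0, and Gm14434 is the near-identical neighbour of Gm14308. Their group differences are therefore given as a description, without a test. The series holds 6 RNA-seq libraries, 3 per group, made with oligo(dT) capture from the injured part of the heart of male C57BL/6 mice labelled wt. In both groups the LAD coronary artery was closed for 45 min, followed by 24 h of reperfusion (IR). The IR mice had this procedure alone, and the TMAO+IR mice also drank 0.12% trimethylamine N-oxide (TMAO) in water for 4 weeks before it and during it. The labels give neither the substrain or supplier of the mice nor their age, and number the libraries without naming animals, so any spread between libraries may be technical. No group without ischaemia was used here.

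Gm4737 and Eno1b are copies of housekeeping enzyme genes. Such retrocopies arise when a spliced messenger RNA is reverse transcribed and inserted elsewhere in the genome, so that they lack most introns of the parent and its promoter. The parent of Gm4737 is Ahcy, adenosylhomocysteinase, which hydrolyses S-adenosylhomocysteine, the product left when a methyl group is taken from S-adenosylmethionine. The parent of Eno1b is Eno1, alpha-enolase of glycolysis, which turns 2-phosphoglycerate into phosphoenolpyruvate. Gm14308 and Gm14434 are predicted genes in a tandem array of zinc finger genes, a class whose proteins bind DNA and which in mice repeatedly duplicated into near-identical neighbours. Short reads from such copies can match several genes equally well, so a count of 1 copy depends on how a program shares them out.

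Gm4737 (ENSMUSG00000048087; chromosome 16, 46152985 to 46155077, minus strand, GRCm38) is annotated as a single exon of 2093 bases, whereas the longest annotated transcript of Ahcy has 10 exons. Gm4737 aligned to the longest spliced transcript of Ahcy over 2086 bases with 7 mismatches and no gap, an identity of 99.7%. Of these 7 mismatches, 4 fell in the coding sequence of Gm4737, at transcript positions 524, 539, 1115 and 1133 counted from 1 at its 5′ end, and 3 in its 3′ UTR. A stretch of 150 coding bases of each transcript (positions 390 to 539 of Gm4737 and 430 to 579 of Ahcy) is shown to let the copy be read against its parent. The capitals mark the 2 bases that differ.
Gm4737: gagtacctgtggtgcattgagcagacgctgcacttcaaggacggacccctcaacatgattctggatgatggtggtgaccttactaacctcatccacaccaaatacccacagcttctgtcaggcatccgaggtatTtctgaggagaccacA
Ahcy: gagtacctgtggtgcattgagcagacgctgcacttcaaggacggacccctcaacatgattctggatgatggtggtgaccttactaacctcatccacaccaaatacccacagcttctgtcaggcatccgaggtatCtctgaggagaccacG

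The RefSeq promoter windows of Gm4737 (GRCm38.p6, minus strand, chr16:46155028-46155327) and Ahcy (minus strand, chr2:155074448-155074747) are shown to set the copy against its parent, with the 50 transcribed bases in capitals.
Gm4737: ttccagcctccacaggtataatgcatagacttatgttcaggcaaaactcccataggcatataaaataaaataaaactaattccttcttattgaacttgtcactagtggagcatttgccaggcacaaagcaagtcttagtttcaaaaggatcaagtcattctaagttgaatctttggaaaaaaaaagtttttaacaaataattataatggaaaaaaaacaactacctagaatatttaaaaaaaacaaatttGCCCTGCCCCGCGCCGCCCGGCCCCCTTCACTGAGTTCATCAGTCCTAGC
Ahcy: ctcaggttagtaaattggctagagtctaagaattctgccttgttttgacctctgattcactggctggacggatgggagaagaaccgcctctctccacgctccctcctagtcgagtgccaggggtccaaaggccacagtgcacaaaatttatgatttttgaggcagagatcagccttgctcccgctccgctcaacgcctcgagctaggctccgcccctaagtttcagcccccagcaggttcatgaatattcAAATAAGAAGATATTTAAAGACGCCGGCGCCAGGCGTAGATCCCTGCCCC
The 250 bases before the start held 29.6% G or C in Gm4737 and 52.8% in Ahcy, against a median of 52.4% over the 32851 windows of the table. Only 1.3% of these windows had a lower share than Gm4737. The window of Gm4737 did not align with that of Ahcy at an expectation value of 1e-10.

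Gm14434 (ENSMUSG00000078881; 176473278 to 176486783) and Gm14308 (ENSMUSG00000078880; 176613364 to 176636344) lie on the minus strand of chromosome 2 with 126580 bases between them. Within 2 Mb of Gm14308, 33 of its 51 protein-coding neighbours carry Gm symbols and 11 carry Zfp symbols. Gene Ontology terms in the deposited table give both genes nucleic acid binding, metal ion binding and regulation of transcription. The longest transcript of Gm14434, 1497 bases, was identical over its whole length to part of the longest transcript of Gm14308. The first 150 bases of that coding sequence are shown once because both genes share them.
Gm14308: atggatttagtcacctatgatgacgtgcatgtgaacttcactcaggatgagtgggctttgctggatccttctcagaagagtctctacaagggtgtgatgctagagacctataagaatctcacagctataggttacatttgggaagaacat
This stretch was found letter for letter in transcripts of 8 genes other than Gm14308, among them Gm14434, Gm2026, Gm4724, Gm14305 and Gm4631. The transcripts of 1458 bases that each gene also has differed at 2 positions, 564 and 565, in the 3′ UTR.

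The promoters of the pair are shown because their counts went in opposite directions. The RefSeq windows of Gm14308 (GRCm38.p6, minus strand, chr2:176636270-176636569) and Gm14434 (minus strand, chr2:176486700-176486999) were identical over all 300 bases, of which the 50 transcribed ones are in capitals.
Gm14434: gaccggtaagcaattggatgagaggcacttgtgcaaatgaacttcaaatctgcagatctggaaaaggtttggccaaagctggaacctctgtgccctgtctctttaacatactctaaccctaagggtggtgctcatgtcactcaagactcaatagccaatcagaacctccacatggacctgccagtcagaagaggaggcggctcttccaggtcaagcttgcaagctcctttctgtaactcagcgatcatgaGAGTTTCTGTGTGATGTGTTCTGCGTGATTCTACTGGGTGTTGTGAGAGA
The same 300 bases also form the window of Gm2026 and Gm4724. In all, 9 other genes had a window with at least 95% identity to that of Gm14308 over at least 285 bases, and each of the 9 lies on chromosome 2.

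Eno1b (ENSMUSG00000059040; chromosome 18, 48045335 to 48048412, plus strand) is annotated with 2 transcripts. Its longest transcript of 1791 bases has 2 exons, against 12 in that of Eno1. It aligned to the longest transcript of Eno1 over 1652 bases with 9 mismatches and no gap (99.5% identity). The other enolases were more distant, with 77.5% identity for Eno3, the muscle enolase, and 76.9% for Eno2, the neuronal enolase. The coding sequence of Eno1b held 8 of the 9 mismatches, all between transcript positions 861 and 1368, so the first part of the aligned transcript was identical to that of Eno1.

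Gm4737 was not counted in any IR library and was counted in every TMAO+IR library. The counts were 0, 0 and 0 in IR and 19, 42 and 21 in TMAO+IR (replicates 1, 2 and 3). In FPKM, fragments scaled for transcript length and library size, the TMAO+IR libraries had 0.50, 0.94 and 0.48 FPKM, a mean of 0.64 ± 0.26 (SD, n = 3). Replicate 2 was the highest of them, and the groups did not overlap. Library sizes, recovered from the ratio of counts to FPKM, were 18370997 to 22442237 fragments. The 3 IR libraries together held 65112647 fragments, and a count of 0 in them allows up to 3 counts, or 0.0461 CPM (counts scaled to library size). The pooled level in TMAO+IR was 1.35 CPM, 29.3 times that limit. The limit covers counting error in IR only. The log2 fold change of 9.32 in the authors' deposited table is the largest of the list, and it rests on the 0.001 that the authors put in place of an IR mean of 0, so its size cannot be read as a fold.

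Eno1b, the enolase copy, had the same shape with 1 exception. Its counts were 6, 0 and 0 in IR and 32, 31 and 28 in TMAO+IR, or 0.17, 0 and 0 FPKM against 0.99, 0.82 and 0.76 FPKM. The TMAO+IR libraries lay close together (0.857 ± 0.119 FPKM, n = 3), and IR replicate 1 was the only IR library with any count. Pooled per group, Eno1b was 16.3-fold higher in TMAO+IR, with an exact 95% interval of 7.19 to 45.5 that covers counting error only. Without IR replicate 1, IR was at 0. The level in TMAO+IR was then 22.2 times the limit of 3 counts in the 44430848 fragments left. The authors' deposited table gives a log2 fold change of 3.92.

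Gm14308 went the other way. It had 47, 32 and 37 counts in IR and 2, 5 and 0 in TMAO+IR, or 1.85, 1.01 and 1.13 FPKM against 0.14, 0.27 and 0 FPKM. The lowest IR library lay well above the highest TMAO+IR library, both of which are replicate 2. Pooled per group, it was 15.5-fold higher in IR (exact 95% interval 7.27 to 39.3, counting error only). The fitted log2 fold change was -3.89, and it was -4.97 without TMAO+IR replicate 2 and -3.31 without TMAO+IR replicate 3. The authors' deposited table gives a log2 fold change of -3.28.

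Gm14434 was counted in all 6 libraries. Its counts were 17, 24 and 12 in IR and 49, 61 and 44 in TMAO+IR, and its FPKM values 0.57, 0.74 and 0.74 against 2.27, 1.98 and 1.44. The means were 0.816 ± 0.278 CPM in IR and 2.54 ± 0.377 in TMAO+IR (SD, n = 3), a ratio of 3.11. In the authors' deposited table its log2 fold change was 1.47.

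**Figure D1:**
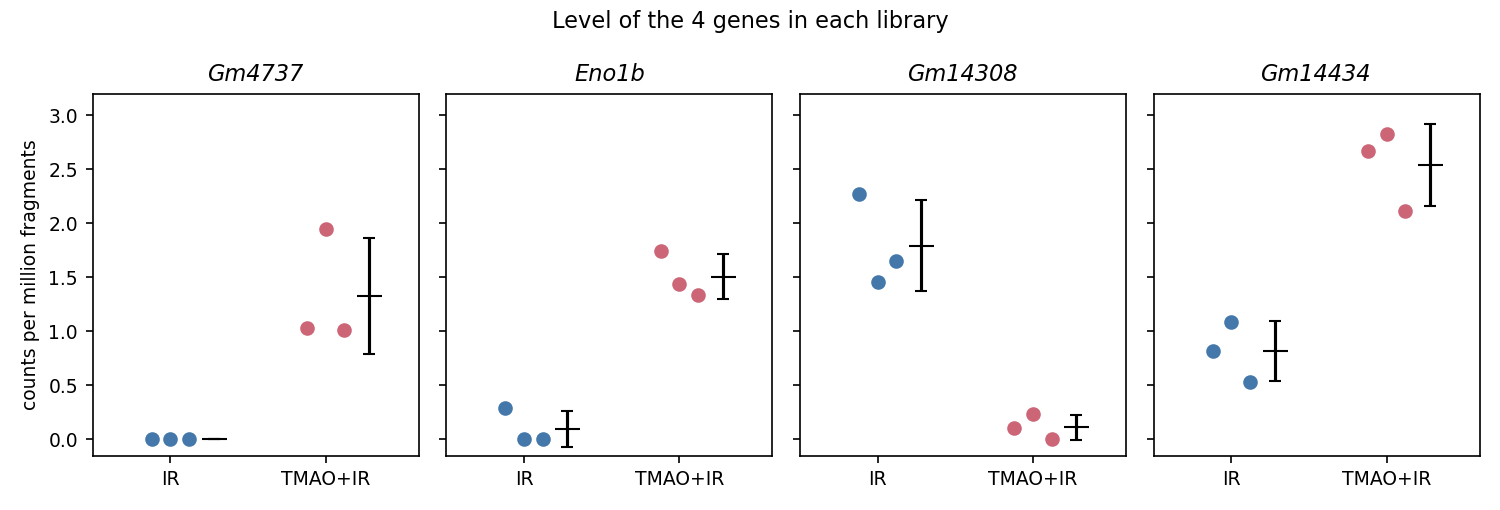
Levels in CPM of recovered fragments of Gm4737, Eno1b, Gm14308 and Gm14434 (vertical axis) in the 3 IR and 3 TMAO+IR libraries (points in replicate order, with the mean and SD beside them). Gm4737 is at 0 in the 3 IR libraries, Eno1b in 2 of them, and Gm14308 is the only gene of the 4 that is lower in TMAO+IR.

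Of the 4 genes, 3 were higher and 1 lower in TMAO+IR. Among the 149 listed genes, 81.9% were higher and 18.1% lower with edgeR's quasi-likelihood test, and all of them passed. With TMM factors computed within the list, 33 passed, 6 higher and 27 lower. The log2 fold change of Gm14434 was then 0.60. The authors chose the list on this difference, and the list is 1.17% of the about 12721 genes that its adjusted p-values imply as tested. In all 4 genes the 2 ranges of CPM were separate, as they were in 97.3% of the listed genes. Since this contrast chose the genes, nothing is read from these shares. The authors' adjusted p-values (FDR) that put them on the list, in the authors' deposited table, were 3.46e-05 for Gm4737, 4.10e-05 for Gm14308, 0.000568 for Eno1b and 0.00657 for Gm14434.

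Gm14308 and Gm14434 went in opposite directions by nearly the same number of counts. Their summed counts were 64, 56 and 49 in IR and 51, 66 and 44 in TMAO+IR, so the range in IR lay inside that in TMAO+IR. In CPM the sum was 3.09, 2.55 and 2.18 in IR, a mean of 2.61 ± 0.459, and 2.78, 3.06 and 2.11 in TMAO+IR, a mean of 2.65 ± 0.488 (SD, n = 3), a ratio of 1.02. The sums of the FPKM values gave a ratio of 1.01. With 1 library left out at a time the ratio of CPM lay between 0.937 and 1.12. The share of Gm14308 in the pair's counts differed between the groups. In IR it was 73.4%, 57.1% and 75.5%, and TMAO+IR had 3.92%, 7.58% and 0%. The exact 95% interval was 43.2% to 70.3% in the lowest IR library (replicate 2) and 2.51% to 16.8% in the highest TMAO+IR library (also replicate 2), for counting error only. The sum was formed after the counts had been seen and combines values that chose the genes, so it is a description. How reads were assigned within the pair was not tested. Other near-identical genes of the array, such as Gm2026, Gm4724, Gm14305 and Gm4631, are outside the deposited list and not analysed here, so the total of the array is not known.

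**Figure D2:**
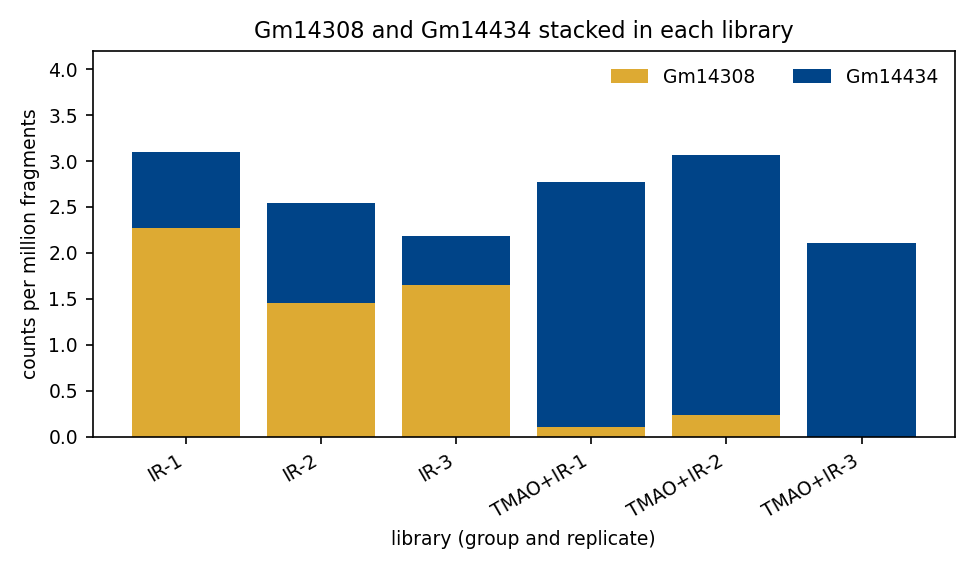
Stacked levels in CPM of recovered fragments (vertical axis, from 0) of Gm14308 and Gm14434 for each library. The total height lies between 2.11 and 3.09 in every library, while the Gm14308 part makes up 57.1% to 75.5% of it in IR and at most 7.58% in TMAO+IR.

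How far reads could be told apart was measured on the annotated transcripts (GENCODE M21, GRCm38). Every stretch of 75 bases in the transcripts of a gene was looked up in the transcripts of all other genes, on both strands. Other genes held 91% of the 2019 distinct windows of Gm4737, namely Ahcy 86.5% and Gm9826 33.6%. Of the 1801 windows of Eno1b, 80.6% were held elsewhere, with 69.6% in Eno1 and 59.7% in Gm4735. For Gm14308 the figure was 97.4% of 3327 windows and for Gm14434 99.9% of 2772, spread over 36 other genes in both cases. Gm14308 held 96.9% of the windows of Gm14434, and Gm14434 held 80.8% of those of Gm14308. The pair was not particular in this. Gm2026, which is not listed, held 97% of the windows of Gm14434 and 78.5% of those of Gm14308. For Gm4724, also not listed, the shares were 85.8% and 73.6%.

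Windows that belong to a single gene were few and unevenly placed. Gm14308 had 87 of its own, and all 87 lay in its noncoding transcript. Its 3 protein-coding transcripts had none. Gm14434 had 4, at the 5′ end of its shortest transcript. Between the pair alone, the noncoding transcript of Gm14308 had 564 of 611 windows that Gm14434 lacked, and the shortest transcript of Gm14434 had 23 of 485 that Gm14308 lacked. The transcripts of 1458 bases each had 76 such windows, at the 2 differing positions, as did the shortest coding transcript of Gm14308. The longest transcript of each had none. Gm4737 had 181 windows of its own and Eno1b 350. The longest run without a mismatch was 575 bases between Gm4737 and Ahcy and 751 bases between Eno1b and Eno1.

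Sharing of windows on this scale was uncommon in the list, whatever the reason for the sharing. The median share of windows held elsewhere was 0.0462% over the 149 genes, and 10 genes exceeded 50%, with the 4 described here at ranks 1, 3, 6 and 7. The genes were chosen partly as copies, so this is a description. The labels state no read length. With windows of 150 bases the share was 76.5% for Gm4737, 62.9% for Eno1b, 95% for Gm14308 and 99.7% for Gm14434, so the order of the genes was the same as with 75 bases.

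**Figure D3:**
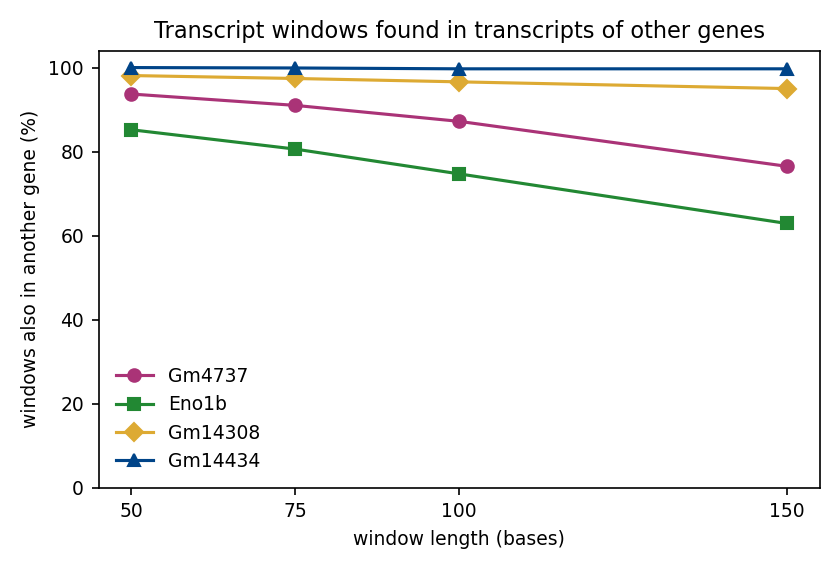
Share of distinct transcript windows that are also found in a transcript of another gene (percent, vertical axis) against window length of 50, 75, 100 and 150 bases. The share falls with length for Gm4737 (93.7% to 76.5%) and Eno1b (85.2% to 62.9%) and stays at 95% or more for Gm14308 and Gm14434.

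Only 1 other pair of listed genes shared sequence to this extent. Gm4070 and Gvin1, members of a family of interferon-inducible GTPases, held 93.9% and 97.5% of each other's windows. Gm4070 had 587, 816 and 268 counts in IR and 2051, 2019 and 1247 in TMAO+IR, and Gvin1 814, 1181 and 398 against 2069, 2017 and 1334. Both genes of that pair were higher in TMAO+IR in every library, unlike Gm14308 and Gm14434. No test of this difference was made. None of the remaining listed pairs shared more than 5.25% of the windows of either gene.

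The deposited counts and FPKM values also carry a length, since a count divided by FPKM and library size implies one for the gene. In a gene with several transcripts, this implied length need not be that of any 1 of them. For Gm4737 it was 2068, 2075 and 2101 bases in the 3 TMAO+IR libraries, near the single annotated length of 2093. Eno1b gave 1756 to 1769 bases in TMAO+IR and 1707 in IR replicate 1, where the rounding of a value of 0.17 FPKM allows 1658 to 1758. In both genes the implied length was thus nearly the same in each library with a count.

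In Gm14308 and Gm14434 the implied length changed from library to library. Gm14308 stood at 1228, 1441 and 1459 bases in IR and at 778 and 860 in TMAO+IR replicates 1 and 2, where its annotated transcripts are 1628, 1458, 777 and 685 bases. The TMAO+IR values rest on 2 and 5 counts. Gm14434 stood at 1442, 1475 and 723 bases in IR and at 1175, 1431 and 1467 in the TMAO+IR libraries, against annotated lengths of 1497, 1458 and 559. In IR replicate 3, with the shortest length, 12 counts appear as 0.74 FPKM, as do 24 counts in IR replicate 2. The fold of Gm14308 differed between units, as it was 15.8-fold higher in IR by mean CPM and 9.73-fold higher by mean FPKM.

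**Figure D4:**
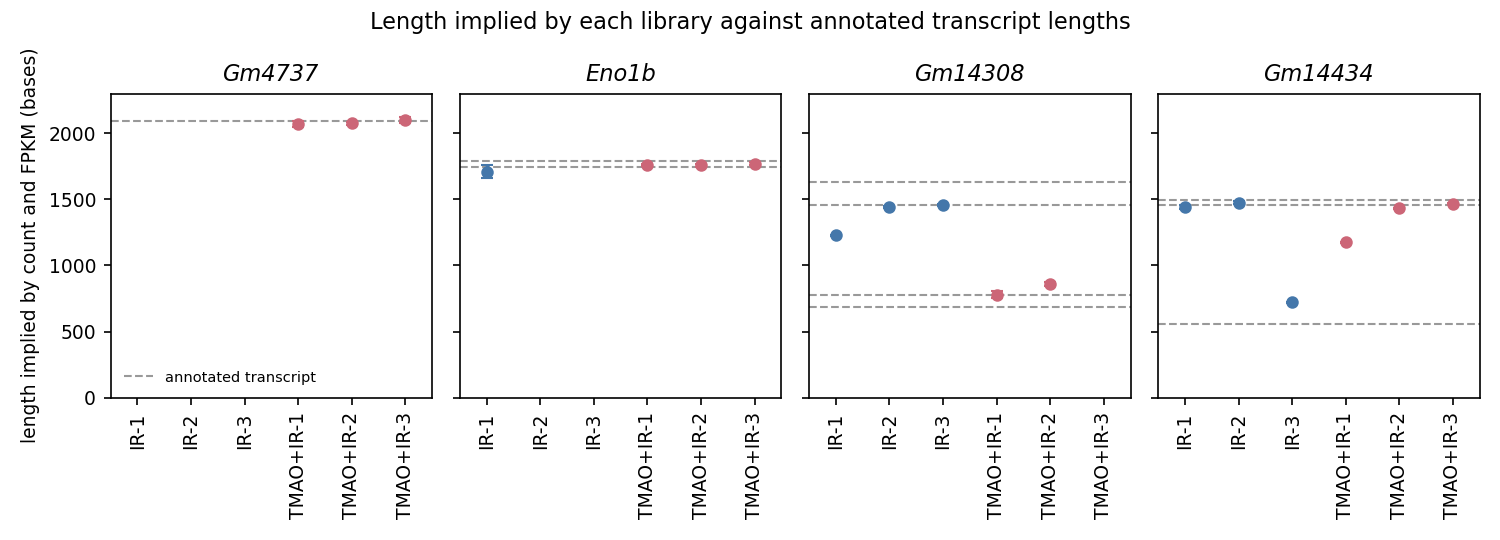
Length implied by count, FPKM and library size (bases, vertical axis) in each library with a count above 0. Bars give the range that FPKM values of 2 decimals allow, and dashed lines the annotated transcript lengths. Gm4737 and Eno1b lie near their annotated lengths, while Gm14308 ranges from 778 to 1459 bases and Gm14434 from 723 to 1475.

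All 3 listed genes with any library at 0 are among these 4. Ordered by the mean count of their lower group, Gm4737 (0), Eno1b (2) and Gm14308 (2.33) are the lowest of the 149, followed by Plcxd2 at 6.33, and Gm14434 (17.7) is number 22. The median of this mean was 118 over the list. Plcxd2, a phospholipase C-like gene, had 6, 9 and 4 counts in IR and 21, 31 and 24 in TMAO+IR. It is also the only listed gene among the 29 protein-coding neighbours within 2 Mb of Gm4737. Eno1b had no listed neighbour among 18. Gm14308 and Gm14434 had 51 each within that distance, and the only listed one was each other. The authors listed 1.17% of the genes implied as tested, and nothing is read from so few neighbours.

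**Figure D5:**
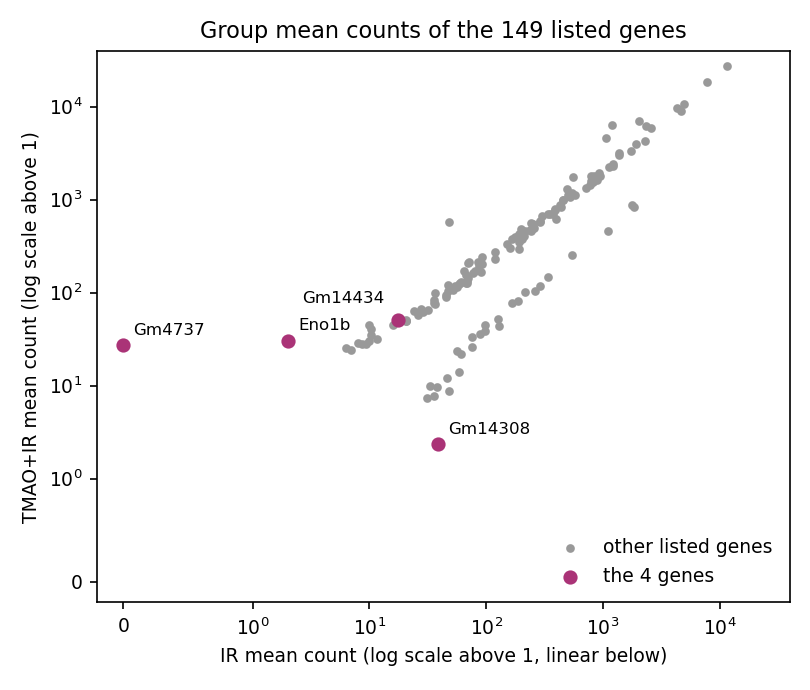
Mean count in IR (horizontal axis) against mean count in TMAO+IR (vertical axis) for the 149 listed genes, on axes that are logarithmic above 1 and linear below. Gm4737, Eno1b and Gm14308, which were chosen for such counts, lie nearest to an axis, with lower-group means of 0, 2 and 2.33 counts. Gm14434 lies among the other higher genes at 17.7 and 51.3 counts.

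The lists of pathway genes around the parent enzymes and of zinc finger genes are set beside the 1.17% of all tested genes that the authors listed. How many genes of these lists were tested is not known, so nothing is read from their shares. The pathway lists are also short with few listed members, and show no result about the pathways. None of the 23 genes of the methionine cycle list, which holds Ahcy, Ahcyl1 and Ahcyl2 along with the S-adenosylmethionine synthetases and transmethylases, was among the 149. Of the 30 glycolysis genes, Eno1, Eno2 and Eno3 included, 1 was listed: Pfkfb1, which makes and breaks down the glycolytic activator fructose 2,6-bisphosphate, with 4.61, 3.64 and 2.12 FPKM in IR and 1.43, 1.09 and 2.05 in TMAO+IR. None of the 468 protein-coding genes with a Zfp, Zkscan, Zscan or Zbtb symbol was listed. This search by symbol misses zinc finger genes with other names, as it does Gm14308 and Gm14434. It does not show that no other zinc finger gene was listed. Ahcy, Eno1, Eno4 and the unlisted genes of the array were not analysed here, so the counts of the copies cannot be set beside those of their parents.

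Across the 6 libraries, the genes with the most similar pattern were those that differed between the groups in the same direction. By Pearson correlation of log2 CPM (pseudocount 0.1) among 139 listed genes, these were Ackr1 (r = 0.995) and Cyp1a1 (0.987) for Gm4737, Tlr9 (0.993) and Cybb (0.977) for Eno1b, Aurkb (0.947) and Pimreg (0.941) for Gm14308, and Akap12 (0.993) and Nlrc5 (0.992) for Gm14434. The points share their libraries, and every gene was listed for the same group difference. Of 45 cell type markers looked up, 9 were listed, against 1.17% of all genes tested. These were 1 of 9 for cardiomyocytes, 1 of 5 for endothelium, 2 of 7 for macrophages and monocytes, 2 of 6 for neutrophils, 1 of 4 for erythrocytes and 2 of 4 for proliferating cells, and none of 6 for fibroblasts or of 4 for lymphocytes. The markers were chosen with earlier results of these data known, so nothing is read from the number listed. The listed genes stand for themselves and not for their cell types. Ackr1, a venular endothelial gene, Ccr2 and Chil3 of monocytes and macrophages, Mmp8 and Slfn4 of neutrophils and Myh7 of cardiomyocytes were higher in TMAO+IR. The proliferation genes Cdk1 and Aurkb and the erythrocyte gene Slc4a1 were lower. The part of these cells in the counts of the 4 genes was not tested, and in bulk tissue fewer cells of a type and less RNA per cell cannot be told apart. Defining heart markers such as Myh6 and Tnnt2 are outside the list, so the tissue label could not be checked.

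Whether a count near 0 follows TMAO, the genotype of the mice at these loci or the assignment of reads was not tested. All 6 libraries are labelled wild type, and no file used here holds reads, alleles or the handling of reads that match several genes.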

How the data were processed

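RNA-seq libraries of mouse heart, 3 IR and 3 TMAO+IR, were analysed, grouped by sample title. The T-IR columns were matched to TMAO+IR, the only other group. The authors deposited a table of 149 genes with whole-number read counts and FPKM values (2 decimals) per library, their group means, a log2 fold change of these means and a p-value with its FDR. Per the submitters' processing notes the tools included StringTie 1.3.1, HISAT2, Bowtie2 2.2.8 and fastp 0.18.0, with edgeR, DESeq2 and build GRCm38. Their roles, the annotation release and the treatment of reads matching several genes are not given in the sources used here.

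Library sizes were recovered from the ratio of counts to FPKM in the 86 genes that reached 1 FPKM throughout, and scaled with 12 genes of a single annotated transcript. All 149 identifiers matched GENCODE M21. Counts of the whole table were fitted with edgeR 4.0.16 (quasi-likelihood, R 4.3.3, Benjamini-Hochberg over 149 genes, threshold 0.05). The fit was tried on simulated data in which most genes were unchanged. The listed genes were all chosen for a change, so that trial does not cover this setting. The 4 genes are given as values, since their selection fixed the outcome of any test on them. Transcripts were aligned with BLAST 2.17.0 and Biopython 1.88. Promoters are from RefSeq (GRCm38.p6), which had 3 of the 4 genes; no protein table was used here, so zinc finger genes were found by symbol only.

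The members and lists were chosen with earlier results of these data known. Named are the 4 genes, their sequence relatives and the 2 listed genes most like each over the libraries. Other listed genes with Gm or Rik symbols are named where a group mean was at most 10 counts. Listed members of the gene and marker lists and listed neighbours are named too. Gm4070, Gvin1 and 2210407C18Rik were named after their values were seen. Alternatives were DESeq2 1.42.0, limma 3.58.1 on FPKM with pseudocounts of 0.1 and 1, TMM scaling, a mean of at least 20 counts, a replicate block, p-values adjusted for the implied number of genes, and leaving out each library. Same-numbered libraries had correlations of -0.33, 0.36 and -0.07 in their deviations from the group means.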

Additional observations from a re-analysis of the deposited data

How the results depend on the processing

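Of 149 listed genes past the threshold, 50 passed when adjusted for the implied 12721 genes (38 higher in TMAO+IR and 12 lower). With TMM factors computed from the list itself, 33 passed (6 higher, 27 lower), the factors being centred on a list selected for change. Leaving out 1 library gave 117 to 148. DESeq2 and limma (pseudocount 0.1 FPKM) called 149, a mean of at least 20 counts 141 of 141, and the replicate block 149, with members at 7.81 (Gm4737), 4.02 (Eno1b), -3.89 (Gm14308) and 1.65 (Gm14434) on the log2 scale. The labels name no pairs, and only replicate 2 of IR matched its own number best, so the libraries share only a number.

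The edgeR fit gave the 4 genes 7.82, 3.94, -3.89 and 1.63 in the same order. Their selection fixed the direction, so its stability is no evidence. With TMM scaling Gm14434 stood at 0.60. With a pseudocount of 1 FPKM the values were 0.70, 0.82, -1.03 and 0.77. Without IR replicate 1, Eno1b stood at 7.99, since IR was then at 0, and without TMAO+IR replicate 2 Gm14308 stood at -4.97. No fitted value of Gm4737 is a bound on its fold. With a mean of at least 20 counts, Gm4737 and Eno1b gave no value. The summed level of Gm14308 and Gm14434, chosen after seeing the data, moved by less than the spread between libraries in all 7 alternatives. Counts of 0 to 61 per gene and library limit every value here.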

Other observations

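Of the 5 listed genes with Gm or Rik symbols other than these 4, 4 were higher in TMAO+IR, against 81.9% of the 149 listed genes. The lower gene was 2210407C18Rik, with 128, 140 and 120 counts in IR against 47, 42 and 43. Of these 5 genes, Gm10260 and A730049H05Rik had a group mean of at most 10 counts. Gm10260 had 9, 11 and 10 counts in IR and 48, 44 and 44 in TMAO+IR, and A730049H05Rik 7, 11 and 8 against 25, 41 and 19. Other genes held 96.3% of the 75-base windows of Gm10260, the largest part in Gm26619, and 33.9% of those of A730049H05Rik. The libraries of Gm10260 lay within a few counts of each other in each group. For 2210407C18Rik the share was 0%.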
